A study of Mus musculus with 12 samples.

Results

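Loss of Rb1 was examined in cells that already lacked Kdm5a, by setting mouse embryonic fibroblasts without either gene (DKO, Kdm5a-/-;Rb1-/-) against fibroblasts without Kdm5a alone (Kdm5a KO, Kdm5a-/-) after both had been driven toward skeletal muscle. All genes with a mean normalised count of at least 10 over the 8 libraries of mixed cultures were taken, which gave 17199 of the 36229 identifiers in the deposited table, and the comparison rested on 4 of the 12 libraries of the study, 2 of each genotype. The count is a number of reads divided by a size factor of the library. The study also held fibroblasts that were wild type (WT) or lacked only Rb1 (Rb1 KO), with 2 mixed libraries each, and these served to ask whether the effect of Rb1 loss depended on Kdm5a. All cells were of strain C57BL/6. They received a MyoD adenovirus for 24 h in differentiation medium, which held insulin at 10 µg/ml and horse serum at 2%, then fresh medium of the same kind for 72 h, and the whole culture was taken, so that cells that had not become muscle were part of it. Libraries were made from 1.7 µg of total RNA after depletion of ribosomal RNA and were read for 40 bases from 1 end. The alleles are given only as absent, without the part of each gene that was removed.

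The retinoblastoma protein, the product of Rb1, holds E2F transcription factors at the promoters of genes for DNA replication and division and keeps those genes silent as cells leave the cycle. In muscle precursors this exit goes together with the work of MyoD, a transcription factor that turns on myogenin (Myog), MEF2 factors and then the genes of the contractile apparatus, and myotubes without Rb1 are known to re-enter DNA synthesis and to differentiate poorly. KDM5A is a demethylase of lysine 4 of histone H3 that was found as a protein bound to the retinoblastoma protein, and its removal has been found to ease the differentiation block of cells without Rb1. A set of genes is described below by how many of its measured members rose or fell, that is, passed limma at a Benjamini-Hochberg adjusted p under 0.05 over all 17199 genes. Changes are log2 differences of the normalised count + 1, DKO minus Kdm5a KO, with their standard error, a scale that understates the change of genes with few reads.

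The DKO libraries held 31158818 and 41309134 reads, and the Kdm5a KO libraries 21567550 and 27688963 reads. The mitochondrial ribosomal gene mt-Rnr2 took 13.9 and 12.4% of the reads in DKO, against 16.4 and 16.6% in Kdm5a KO. Between the 2 libraries of a genotype the median absolute log2 difference of a gene was 0.106 in DKO and 0.15 in Kdm5a KO. Whether the 2 libraries of a genotype are from separate cultures is not stated in the labels, and the p-values therefore measure only the spread between these libraries, which may be technical. In bulk RNA, fewer cells of a type and less RNA per cell cannot be told apart. Rb1 (ENSMUSG00000022105) had 5309 and 5662 normalised counts in DKO, against 5079 and 5193 in Kdm5a KO (0.09 ± 0.05, limma adjusted p = 0.117). Kdm5a (ENSMUSG00000030180) had 1319 and 1369.7 in DKO, against 1088 and 1192 in Kdm5a KO (0.24 ± 0.08, limma adjusted p = 0.0237), a rise that was lost under upper-quartile scaling (0.19, adjusted p = 0.0645) and without either DKO library or the first Kdm5a KO library. Whole-gene levels thus check neither label here, since transcripts of a deleted gene may persist, and exons overlap those of Lpar6 and Rcbtb2 for Rb1 and those of Ccdc77 for Kdm5a. The groups are therefore named as labelled. Xist, which coats the inactive X chromosome of female cells, had 6933 and 6809.7 in DKO and 3109.9 and 3251 in Kdm5a KO, while it was at 0 in all Rb1 KO and WT libraries, and its exons overlap its antisense gene Tsix. Ddx3y, on the Y chromosome, was at 0 in the DKO and Kdm5a KO libraries and present in the others, so DKO and Kdm5a KO both matched female cells.

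Rb1 loss without Kdm5a changed most of the measured transcriptome. Of the 17199 genes, 11551 (67.2%) passed, of which 5802 (33.7% of all) rose and 5749 (33.4%) fell. At least 2-fold changes were held by 5927 genes (34.5%), 3531 higher and 2396 lower in DKO. The larger changes were mostly rises, since 811 genes were at least 8-fold higher in DKO and 150 at least 8-fold lower among those that passed. The median change over all genes was 0.01, and the middle 90% of changes ran from -1.65 to 2.92. The genes that barely entered had few reads, as Trpm2 (mean 10.01 over the 8 libraries) with 8.42 and 6.32 in DKO and 4.52 and 8.40 in Kdm5a KO, whereas Gm16126 (mean 9.99), with 24.7 and 18.6 in DKO and 0 and 1.4 in Kdm5a KO, stayed just outside.

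**Figure D1:**
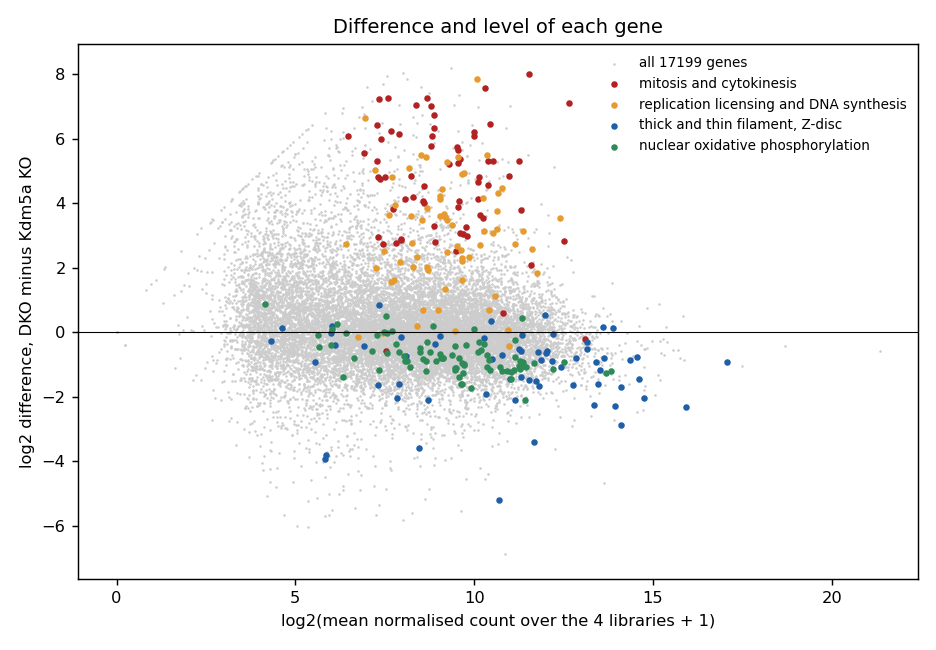
Log2 difference of the normalised count + 1, DKO minus Kdm5a KO, of each of the 17199 genes (vertical axis) against the log2 of its mean level over the 4 libraries (horizontal axis), with the genes of selected sets coloured. Genes of mitosis and DNA replication lie far above 0, and sarcomere genes and those of oxidative phosphorylation mostly below it.

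Genes of the E2F family were mostly higher in DKO. Of 10 E2F family genes and their DP partners 7 rose, none fell and 3 did not pass, with a median change of 1.10. The activator E2f1 (ENSMUSG00000027490) had 1426 and 1398 normalised counts in DKO, against 537 and 645 in Kdm5a KO (1.26 ± 0.10, limma adjusted p = 1.51e-07). The activator E2f2 had 2198 and 2253 in DKO, against 976 and 914 in Kdm5a KO (1.24 ± 0.11), and E2f3 had 1406 and 1540.0 in DKO, against 847 and 858 in Kdm5a KO (0.79 ± 0.08). For all 3 activators both DKO libraries lay above both Kdm5a KO libraries. E2f7, a repressor that E2F factors induce and whose exons overlap 1700020G17Rik, had 806 and 884 in DKO and only 5.43 and 2.80 in Kdm5a KO (7.42 ± 0.58). E2f8, the related repressor, had 1477 and 1585 in DKO, against 553 and 625 in Kdm5a KO (1.38 ± 0.09), and its exons overlap Gm2788. E2f4, the E2F factor that acts with the pocket proteins in resting cells, had 1099.9 and 1031 in DKO and 1294 and 1211 in Kdm5a KO and did not pass (-0.23 ± 0.12, limma adjusted p = 0.0919), although it did when the 4 libraries were fitted alone (adjusted p = 0.0135).

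The other pocket proteins moved apart. Rbl1 (p107), itself an E2F target, had 1521 and 1487 normalised counts in DKO, against 215 and 195 in Kdm5a KO (2.87 ± 0.11, limma adjusted p = 2.74e-10). Rbl2 (p130), the pocket protein of resting cells, fell to 663 and 679 in DKO, against 968 and 1027 in Kdm5a KO (-0.57 ± 0.08), with exons that overlap Aktip. In the set of pocket proteins and the MuvB complex, which joins p130 in silent cells and B-Myb in dividing ones, 7 of 11 members rose and 2 fell. Mybl2 (B-Myb) had 273 and 308 in DKO, against 5.43 and 7.70 in Kdm5a KO (5.28 ± 0.31), and its relative Mybl1 had 5752 and 5639.6 in DKO, against 142 and 109 in Kdm5a KO (5.51 ± 0.20). The MuvB subunit Lin54 rose by 1.87 ± 0.10, whereas Lin52, another subunit, fell by 0.79 ± 0.18.

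Genes that license and fire replication origins rose nearly as a body: 22 of 26 rose, 1 fell and 3 did not pass, with a median change of 2.97. The E2F sites in the promoters of these genes are shown for the 2 members with the smallest p among those with a match, in windows of 300 bases taken from RefSeq (build GRCm38.p6) that run from 250 bases before to 50 bases after the gene start. Capitals mark the E2F site as searched on both strands (TTTCCCGC, TTTCGCGC, TTTGCCGC or TTTGGCGC), and where 2 matches overlap the capitals join them.
Mcm6, chr1:128359656-128359955, minus strand: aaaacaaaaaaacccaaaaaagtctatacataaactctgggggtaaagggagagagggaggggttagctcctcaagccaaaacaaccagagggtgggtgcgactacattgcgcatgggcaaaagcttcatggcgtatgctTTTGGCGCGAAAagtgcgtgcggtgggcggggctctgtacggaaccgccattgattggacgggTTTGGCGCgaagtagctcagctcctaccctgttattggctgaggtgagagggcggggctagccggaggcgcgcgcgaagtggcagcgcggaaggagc
Mcm5, chr8:75109259-75109558, plus strand: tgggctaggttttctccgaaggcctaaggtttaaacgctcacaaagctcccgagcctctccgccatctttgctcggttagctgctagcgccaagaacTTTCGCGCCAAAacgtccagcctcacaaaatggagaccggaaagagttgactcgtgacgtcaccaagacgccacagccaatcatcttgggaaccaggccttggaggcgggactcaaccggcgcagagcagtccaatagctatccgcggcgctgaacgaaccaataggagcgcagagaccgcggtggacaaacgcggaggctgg
Mcm6 (ENSMUSG00000026355) held 3 matches, which began 110, 106 and 47 bases before its start, and Mcm5 (ENSMUSG00000005410) held 2 overlapping matches at 153 and 149 bases. Windows were found for 20 of the 26 members, and 10 of their 25 windows (40.0%) held the site, against 744 of all 32851 windows (2.26%). A match is a string of letters and says nothing of binding in these cells.

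Mcm6, a subunit of the replicative helicase, had 2859 and 2925 normalised counts in DKO, against 293 and 337 in Kdm5a KO (3.20 ± 0.09, limma adjusted p = 3.88e-11). Its partner Mcm5 had 1606 and 1677 in DKO, against 44.3 and 63.0 in Kdm5a KO (4.93 ± 0.15), and Mcm2 had 5229.8 and 5552 in DKO, against 830.1 and 972 in Kdm5a KO (2.58 ± 0.08). For each of these subunits the 2 DKO libraries lay close together and both Kdm5a KO libraries far below. Cdc6, which loads the helicase on origins, had 287 and 296 in DKO and 9.04 and 7.0 in Kdm5a KO (5.03 ± 0.35), and Dbf4, the activating subunit of the kinase that fires origins, had 2256 and 2319 in DKO and 111 and 144 in Kdm5a KO (4.17 ± 0.13). The exception was Orc3, a subunit of the origin recognition complex, with 1663 and 1775 in DKO, against 2307 and 2313 in Kdm5a KO (-0.43 ± 0.07, limma adjusted p = 8.37e-05).

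The machinery of DNA synthesis and nucleotide supply followed, with 39 of 41 members risen, none fallen and a median change of 3.08. Clspn (claspin), the mediator of the replication checkpoint, had 2138 and 2191 normalised counts in DKO, against 8.14 and 8.40 in Kdm5a KO (7.87 ± 0.20, limma adjusted p = 1.12e-11). The sliding clamp Pcna had 416 and 408 in DKO, against 28.9 and 23.1 in Kdm5a KO (3.94 ± 0.25). Both genes were thus near the bottom of their range in Kdm5a KO and high in both DKO libraries. Of the enzymes that supply nucleotides, Rrm1, the large subunit of ribonucleotide reductase, had 10043 and 9792 in DKO, against 812 and 877 in Kdm5a KO (3.55 ± 0.08), and thymidylate synthase (Tyms) had 1047 and 1061 in DKO, against 38.9 and 58.8 in Kdm5a KO (4.43 ± 0.19). Dck, deoxycytidine kinase, rose by 4.48 ± 0.10 and Dna2, a nuclease of lagging-strand synthesis, by 4.33 ± 0.10. In the same windows 10 of 43 (23.3%), found for 36 of the 41 members, held the E2F site.

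Of 27 genes of homologous recombination and the Fanconi pathway, which repair breaks and crosslinks at replication forks, 25 rose and 1 fell, with a median change of 2.50. Brca1 had 1747 and 1745 normalised counts in DKO, against 45.2 and 103 in Kdm5a KO (4.66 ± 0.29, limma adjusted p = 1.71e-08), and its partner Bard1 had 1167 and 1248 in DKO, against 100.4 and 107 in Kdm5a KO (3.53 ± 0.12). The helicase Brip1 rose by 4.75 ± 0.16. Xrcc3 fell (-0.50 ± 0.10), with exons that overlap Klc1. Of 27 measured genes for replication-dependent histones, which are made for new chromatin in S phase, 23 rose and 2 fell, although the libraries were not selected for poly(A) tails and histone messengers that lack one are measured. Hist1h1b, a linker histone, had 723 and 645 in DKO, against 16.3 and 19.6 in Kdm5a KO (5.18 ± 0.24). The 2 that fell were the linker histone Hist1h1c, with 4708 and 4017 in DKO, against 5573 and 5388 in Kdm5a KO (-0.33 ± 0.07), and Hist1h2bc (-0.68 ± 0.09).

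Genes of mitosis and cytokinesis showed the largest median change of all sets described here, 4.82, and 65 of 67 rose. The element known as the cell-cycle homology region (TTTGAA on either strand), which the MuvB complex reads in such promoters, is shown in capitals for the 2 members with the smallest p among those with a match, in the same kind of RefSeq window.
Top2a, chr11:99024140-99024439, minus strand: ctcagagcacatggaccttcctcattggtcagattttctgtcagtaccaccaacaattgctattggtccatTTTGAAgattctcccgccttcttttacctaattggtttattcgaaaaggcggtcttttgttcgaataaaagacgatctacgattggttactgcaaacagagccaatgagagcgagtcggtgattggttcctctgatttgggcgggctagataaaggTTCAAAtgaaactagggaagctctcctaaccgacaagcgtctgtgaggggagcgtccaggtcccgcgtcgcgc
Ncapg2, chr12:116405186-116405485, plus strand: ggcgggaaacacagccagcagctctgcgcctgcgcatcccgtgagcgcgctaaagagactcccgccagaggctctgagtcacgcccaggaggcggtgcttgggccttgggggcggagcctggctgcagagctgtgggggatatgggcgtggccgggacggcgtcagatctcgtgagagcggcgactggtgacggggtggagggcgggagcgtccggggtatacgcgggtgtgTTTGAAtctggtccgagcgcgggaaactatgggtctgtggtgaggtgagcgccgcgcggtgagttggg
Top2a (ENSMUSG00000020914) held it at 179 and 23 bases before its start and Ncapg2 (ENSMUSG00000042029) at 18 bases. Of the 63 windows of 59 members 41 (65.1%) held the element, against 17.9% of all windows, and 46 (73.0%) held CCAAT on either strand, against 37.4% of all windows. A short word such as TTTGAA occurs often by itself, so a match is a description of the sequence only.

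Top2a, the topoisomerase that untangles sister chromatids, had 12885 and 12913 normalised counts in DKO, against 83.2 and 101 in Kdm5a KO (7.12 ± 0.14, limma adjusted p = 3.21e-12), and a small RNA gene, Gm23451, lies within its exons. Ncapg2, a condensin subunit, had 4767 and 4772 in DKO, against 351 and 342 in Kdm5a KO (3.78 ± 0.08). Cdk1, the kinase that starts mitosis, had 4845 and 4640.0 in DKO, against 138 and 102 in Kdm5a KO (5.31 ± 0.18). In each case the libraries of a genotype lay close together beside the distance between genotypes. Mki67 (ENSMUSG00000031004), the marker of proliferating cells, had 5777 and 6061 in DKO, against 11.8 and 40.6 in Kdm5a KO (8.0 ± 0.43), and its change was 7.15 without the first and 8.86 without the second Kdm5a KO library. Ccnb1 (cyclin B1) had 893 and 876 in DKO, against 3.62 and 9.10 in Kdm5a KO (7.02 ± 0.77), and the chromosomal kinase Aurkb had 315 and 299 in DKO, against 9.95 and 9.80 in Kdm5a KO (4.82 ± 0.39). Foxm1, the transcription factor of late-cycle genes, had 674 and 714 in DKO, against 18.1 and 19.6 in Kdm5a KO (5.13 ± 0.21), with exons that overlap Tex52.

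The 2 mitotic genes that fell were Pttg1 and Ube2c. Pttg1 (securin), which holds back sister separation, had 149 and 144 normalised counts in DKO, against 239.6 and 204 in Kdm5a KO (-0.59 ± 0.16, limma adjusted p = 0.00588), and did not pass without the first Kdm5a KO library (-0.47, adjusted p = 0.0560). Ube2c, an enzyme that feeds ubiquitin to the anaphase-promoting complex, had 8363 and 8037 in DKO and 9152 and 9870.4 in Kdm5a KO (-0.21 ± 0.07), a fall that did not pass without the second library of either genotype, and its exons overlap those of the troponin gene Tnnc2, which had 8335 and 8069 in DKO and 9659.7 and 10476 in Kdm5a KO. The 2 genes followed each other in every library, so the value listed for Ube2c cannot be told apart from that of Tnnc2.

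**Figure D2:**
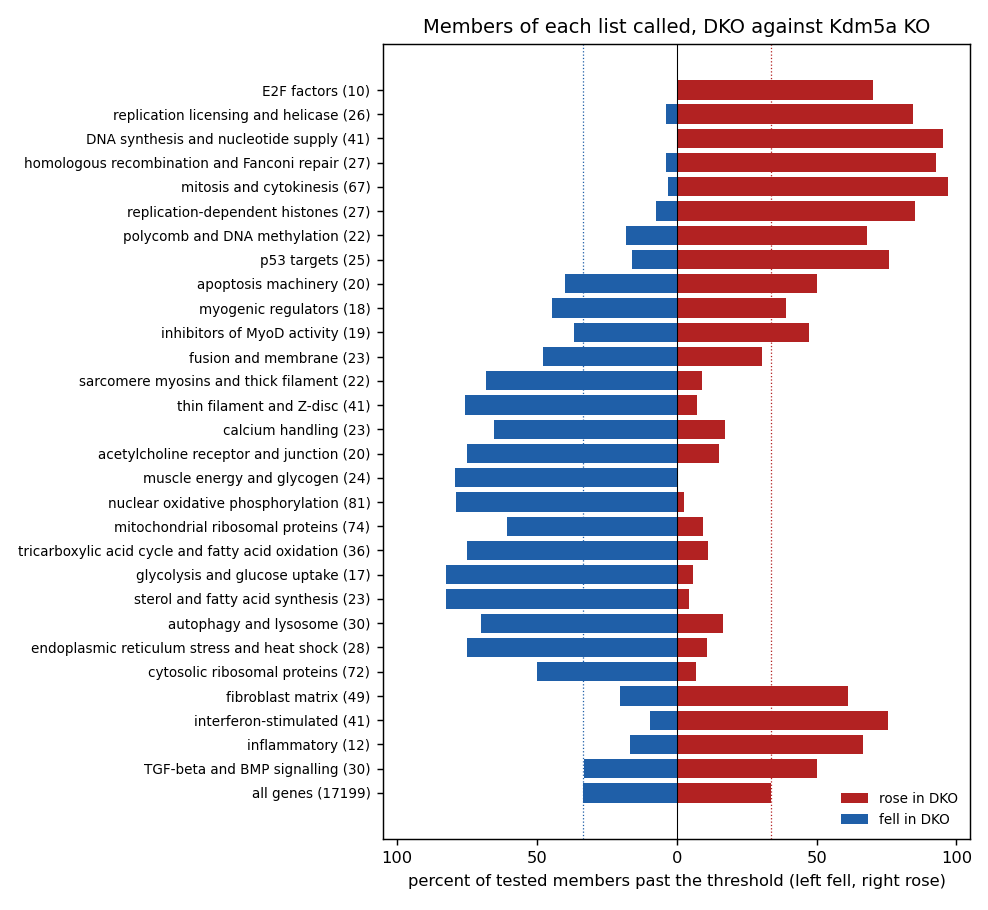
Percent of the measured members of 29 gene sets, and of all 17199 genes, that rose (right of 0) or fell (left of 0) in DKO against Kdm5a KO at a limma adjusted p under 0.05. Among all genes 33.7% rose and 33.4% fell. The sets of the cell cycle lie to the right and those of muscle structure and energy metabolism mostly to the left. The myogenic regulators and the inhibitors of MyoD lie on both sides.

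Both cyclin E genes rose. Ccne2 had 9252 and 9475 normalised counts in DKO, against 258 and 277 in Kdm5a KO (5.13 ± 0.10, limma adjusted p = 3.21e-12), with exons that overlap Ints8, and Ccne1 had 6886 and 7263 in DKO, against 389 and 513 in Kdm5a KO (3.98 ± 0.11). Fbxo5 (Emi1), which restrains the anaphase-promoting complex in S phase, rose, with 1370.3 and 1395 in DKO, against 6.33 and 14 in Kdm5a KO (7.04 ± 0.29). Of the D-type cyclins, which act through the retinoblastoma protein, Ccnd1 had 799 and 698 in DKO and 596 and 846 in Kdm5a KO, overlapping ranges that did not pass (0.07 ± 0.15). Ccnd2 had 318 and 332 in DKO, against 493 and 478 in Kdm5a KO (-0.58 ± 0.08), and Ccnd3, the cyclin of differentiating muscle, had 2034 and 1895 in DKO, against 2965 and 2820.1 in Kdm5a KO (-0.56 ± 0.08). Both fell, and both share exons with a neighbour. In all, 9 of the 13 members of the set of G1 cyclins and kinases, in which Fbxo5 was counted, rose and 2 fell.

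Inhibitors of cyclin-dependent kinases were not lost together. Of 7 measured, 5 rose and 1 fell, beside 33.7% of all genes that rose and 33.4% that fell. Cdkn2c (p18), an inhibitor of the cyclin D kinases, had 2195 and 2165 normalised counts in DKO, against 434 and 447 in Kdm5a KO (2.31 ± 0.08, limma adjusted p = 1.12e-10), and Cdkn2a had 1548 and 1494 in DKO, against 625 and 726 in Kdm5a KO (1.17 ± 0.08). Cdkn1b (p27) rose by 0.63 ± 0.09 and Cdkn1c (p57) by 0.35 ± 0.04. Cdkn1a (p21), which MyoD induces as muscle cells stop dividing, was the member that fell, with 29819.5 and 28104 in DKO, against 36278 and 34142 in Kdm5a KO (-0.28 ± 0.05), and AC167363.2 overlaps its exons.

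Genes that p53 induces and genes of cell death also moved. Of 25 p53 targets 19 rose and 4 fell, with a median change of 1.14, where 33.7% of all genes rose and 33.4% fell. Mdm2, the ligase that degrades p53, had 10712 and 11046 normalised counts in DKO, against 3198 and 2748 in Kdm5a KO (1.88 ± 0.07, limma adjusted p = 1.25e-10), and Trp53inp1 had 11279.6 and 11014 in DKO, against 2301 and 2389 in Kdm5a KO (2.25 ± 0.08). Both were higher in each DKO library than in each Kdm5a KO library. The apoptosis machinery was split, as were all genes (33.7% up and 33.4% down): 10 of 20 rose and 8 fell. Apaf1, the scaffold of the apoptosome and an E2F target, had 3039 and 3085 in DKO, against 603 and 592 in Kdm5a KO (2.36 ± 0.07). Bcl2l11 (Bim), which promotes death, rose by 2.27 ± 0.09, while Mcl1 (-0.92 ± 0.06) and Cflar (-1.60 ± 0.07), which protect cells, fell. Other members moved the opposite way: Xiap, which also protects cells, rose (1.22), and Diablo, which promotes death, fell (-0.95). Trp73, the p53 relative that E2F1 induces, had 225 and 210.2 in DKO, against 3.62 and 0 in Kdm5a KO (6.67 ± 0.67). The change of Trp73 was 7.77 without the first and 5.56 without the second Kdm5a KO library, and Trp73os overlaps its exons.

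Chromatin genes tied to division rose with the cycle. Of 22 genes of the polycomb complexes and DNA methylation 15 rose and 4 fell, beside 33.7 and 33.4% of all genes. Ezh2, the methyltransferase of polycomb complex 2 in dividing cells, had 3943 and 4313 normalised counts in DKO, against 506 and 605 in Kdm5a KO (2.90 ± 0.09, limma adjusted p = 4.01e-11), with exons that overlap Gm26625. Its counterpart in resting cells, Ezh1, had 276 and 229 in DKO, against 569.7 and 587 in Kdm5a KO (-1.20 ± 0.13). The 2 paralogues thus moved in opposite directions, with no overlap between genotypes for either. Dnmt1, the maintenance DNA methyltransferase, had 3993 and 3914 in DKO, against 666 and 527 in Kdm5a KO (2.74 ± 0.10), and its cofactor Uhrf1 had 792 and 786 in DKO, against 11.8 and 25.2 in Kdm5a KO (5.43 ± 0.50). Of the 3 relatives of Kdm5a 2 fell and the Y-linked Kdm5d was at 0 in these 4 libraries. Kdm5b had 835 and 837 in DKO, against 2255 and 2046 in Kdm5a KO (-1.36 ± 0.08), and the X-linked Kdm5c had 1806 and 1698 in DKO, against 3227 and 3296 in Kdm5a KO (-0.90 ± 0.06).

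**Figure D3:**
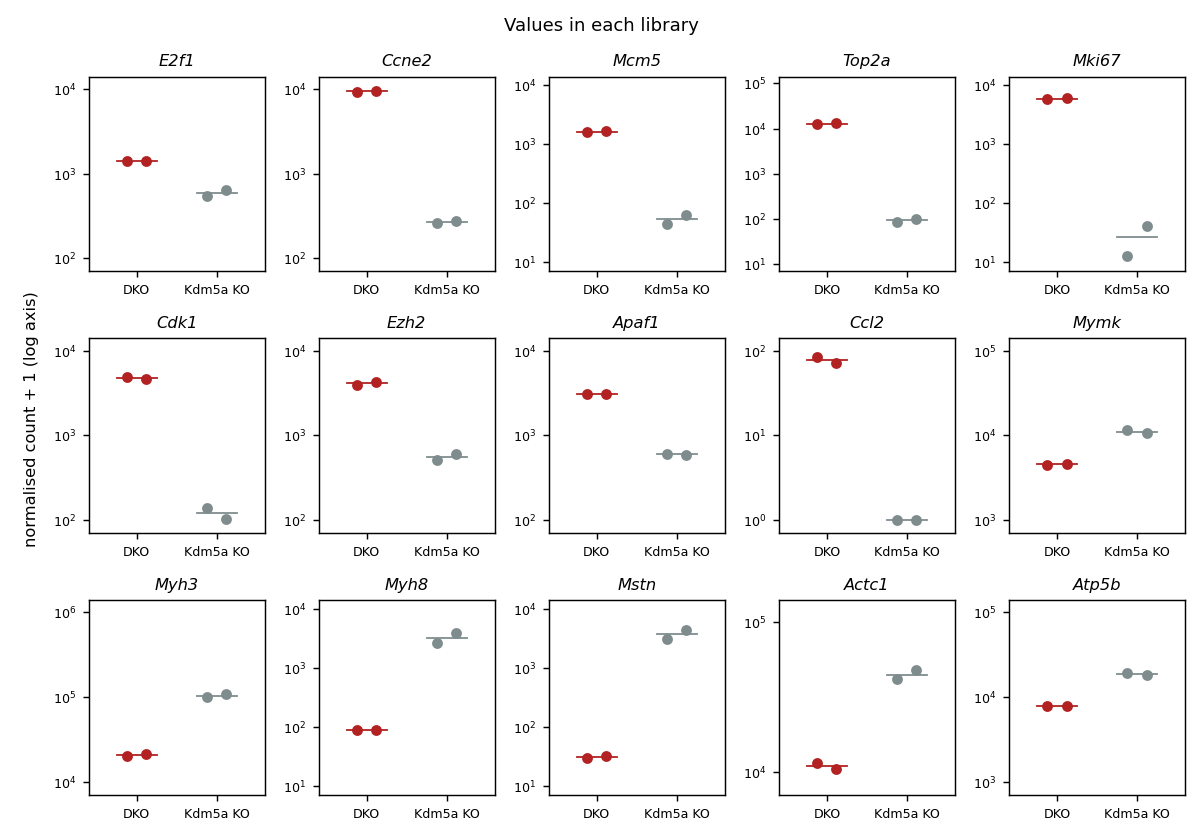
Normalised count + 1 (log axis) of 15 genes in each library, DKO on the left and Kdm5a KO on the right of each panel, with a line at the mean of the 2 libraries. Cell-cycle genes lie higher in DKO, muscle genes such as Myh3, Myh8 and Mstn lie lower, and no panel shows the 2 genotypes overlapping.

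Markers of other cells were read because cultures were mixed. The summed level of 10 skeletal muscle markers was 163639 and 181016 in DKO, against 350354 and 362275 in Kdm5a KO, with 7 markers fallen and 2 risen. The summed level of 10 fibroblast markers was 12417 and 12695 in DKO, against 6621 and 6157 in Kdm5a KO, with 9 risen and none fallen. A wider set of 49 fibroblast matrix genes, of which 30 rose and 10 fell, had a lower sum in DKO. It was 56747 and 57503 in DKO, against 64143 and 62696 in Kdm5a KO. The DKO cultures thus read lower for the 10 muscle markers and higher for the 10 fibroblast markers, though not for the summed matrix set. The part of this shift in the muscle and matrix sets that follow was not tested. Endothelial markers summed to 566 and 539 in DKO, against 307 and 254 in Kdm5a KO, with Tie1 at 0 in all 4 libraries. The 7 smooth muscle markers summed to 19202 and 18926 in DKO, against 29825 and 29714 in Kdm5a KO, with 4 risen and 3 fallen. Macrophage markers summed to 133 and 124 in DKO, against 47.0 and 56.7 in Kdm5a KO, with 1 risen and 1 fallen of 3 tested, but a wider macrophage and blood set summed to 592 and 596 in DKO, against 709 and 747 in Kdm5a KO, with 2 risen and 2 fallen of 10. Cartilage and bone markers summed to 86.8 and 97.6 in DKO, against 22.6 and 28.0 in Kdm5a KO, with 1 risen of 2 tested. The wider cartilage and bone set, in which Spp1 (-2.48) and Col11a1 (-0.52) fell and 4 of 9 rose, summed to 9116 and 10392 in DKO, against 46023 and 39446 in Kdm5a KO. Adipocyte markers (71.0 and 58.5 in DKO, 74.2 and 73.5 in Kdm5a KO) and neural markers (329 and 293 in DKO, 335 and 378 in Kdm5a KO) were low throughout. Epithelial markers summed to 48.9 and 50.6 in DKO and 34.4 and 41.3 in Kdm5a KO, with Krt14 at 0. The wider sets of these kinds had lower sums in DKO. The adipocyte set summed to 486 and 434 in DKO, against 709 and 713 in Kdm5a KO, with 2 fallen and none risen of 6. The neural and glia set, not low in either genotype, summed to 17424 and 17715 in DKO, against 21244 and 21157 in Kdm5a KO. Of its 10 measured genes 2 rose and 2 fell. The epithelial set summed to 44.2 and 40.7 in DKO, against 165 and 172 in Kdm5a KO, with 1 fallen and none risen of 3.

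The transcription factors of muscle were mixed. Of 18 measured myogenic regulators 7 rose, 8 fell and 3 did not pass, with a median change of 0.19, or 0.36 without the genes that share exons. Among all genes 33.7% rose and 33.4% fell. Myod1 (the deposited value does not separate the cell's own messenger from that of the virus) had 2502 and 2611 normalised counts in DKO, against 4124 and 4120.3 in Kdm5a KO (-0.69 ± 0.09, limma adjusted p = 2.65e-05). Myog (ENSMUSG00000026459), its early target, was higher without Rb1, with 13309 and 12735 in DKO, against 8748 and 8969 in Kdm5a KO (0.56 ± 0.06). Mef2a had 21029 and 23172 in DKO, against 7704 and 7433 in Kdm5a KO (1.54 ± 0.06), with exons that overlap Lysmd4. Mef2c, the MEF2 factor of differentiating muscle, went the other way, with 4603 and 4824 in DKO, against 13133 and 13707 in Kdm5a KO (-1.51 ± 0.06). Myf6 (MRF4), the late myogenic factor, had few reads, with 0.526 and 2.37 in DKO, against 8.14 and 21.7 in Kdm5a KO (-2.67 ± 0.64), and its change was -3.32 without the first and -2.01 without the second Kdm5a KO library. The E protein Tcf3 (1.04 ± 0.08), a partner of MyoD, rose.

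Inhibitors of MyoD were as divided, 9 of 19 up, 7 down and 3 not passing, beside 33.7% of all genes up and 33.4% down. Their median change was 0.02, and its sign varied with the processing. Twist1, which binds MyoD's partners, had 561 and 623 normalised counts in DKO, against 172 and 186 in Kdm5a KO (1.72 ± 0.11, limma adjusted p = 3.13e-08), and the Notch effector Hey1 had 245 and 211 in DKO, against 39.8 and 51.8 in Kdm5a KO (2.30 ± 0.25). The Id proteins, which take E proteins away from MyoD, fell: Id1 by 0.50 ± 0.09, Id2 by 0.54 ± 0.07 and Id3 by 0.30 ± 0.09 on the log2 scale. The fall of Id3 did not pass without the second library of either genotype.

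Myoblast fusion depends on a pair of membrane proteins that are found in muscle alone, and they parted in these cells. Mymk (myomaker, ENSMUSG00000009214) had 4504 and 4597 normalised counts in DKO, against 11457 and 10702 in Kdm5a KO (-1.28 ± 0.05, limma adjusted p = 3.53e-10). Mymx (myomerger, ENSMUSG00000079471) had 2166 and 1994 in DKO, against 908 and 946 in Kdm5a KO (1.16 ± 0.08, limma adjusted p = 6.02e-08). Neither gene overlapped between genotypes. Of 23 genes for fusion and the muscle membrane 11 fell and 7 rose, beside 33.4% of all genes that fell and 33.7% that rose. Itgb1, the integrin chain that pairs with most alpha chains, had 20606 and 20419 in DKO, against 50359 and 51905 in Kdm5a KO (-1.32 ± 0.04), and its muscle partner Itga7 fell by 2.05 ± 0.06. Adgrb3, an adhesion receptor that takes part in fusion, had 355 and 325 in DKO, against 2.71 and 2.80 in Kdm5a KO (6.50 ± 0.45).

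Structural genes of the contractile apparatus fell in most cases. Of 22 genes of the myosins and the thick filament 15 fell and 2 rose (median change -1.0), and of 41 genes of the thin filament and Z-disc 31 fell and 3 rose (median change -0.86). The thick filament set includes Hsp90aa1, a chaperone and not a filament protein, which was among the 2 that rose (0.84). The sites that MyoD and its E-protein partners read, E-boxes of the form CAGCTG or CACCTG on either strand, are in capitals in the RefSeq windows of the 2 members with the smallest p among those with a match.
Tnnt2, chr1:135836084-135836383, plus strand: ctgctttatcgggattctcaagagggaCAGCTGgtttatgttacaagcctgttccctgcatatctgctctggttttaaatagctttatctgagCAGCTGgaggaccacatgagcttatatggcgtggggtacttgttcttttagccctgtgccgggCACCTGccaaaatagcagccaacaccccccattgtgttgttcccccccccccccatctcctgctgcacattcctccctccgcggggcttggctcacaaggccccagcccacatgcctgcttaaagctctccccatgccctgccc
Tnni1, chr1:135799171-135799470, plus strand: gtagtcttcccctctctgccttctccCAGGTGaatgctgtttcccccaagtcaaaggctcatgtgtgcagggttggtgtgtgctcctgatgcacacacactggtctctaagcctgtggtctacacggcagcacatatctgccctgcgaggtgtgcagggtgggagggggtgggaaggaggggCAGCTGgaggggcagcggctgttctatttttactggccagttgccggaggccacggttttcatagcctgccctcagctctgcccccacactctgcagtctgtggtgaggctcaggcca
Tnnt2 (ENSMUSG00000026414) held 3 matches, at 223, 157 and 94 bases before its start, and Tnni1 (ENSMUSG00000026418) held 2, at 224 and 68 bases. Of the 62 windows of 49 members of these sets 34 (54.8%) held such an E-box, against 32.95% of all windows, and 10 (16.1%) held a MEF2 site, against 1.86%. The E2F site was in 1 of these 62 windows. These shares describe letters in a short window and not occupancy.

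Tnnt2, the troponin T of embryonic and cardiac muscle, had 5500.2 and 5245 normalised counts in DKO, against 25729 and 26631 in Kdm5a KO (-2.28 ± 0.05, limma adjusted p = 3.21e-12). Tnni1, the slow troponin I, had 8376 and 7998 in DKO, against 25883 and 27648 in Kdm5a KO (-1.71 ± 0.05). Actc1, the cardiac alpha-actin of immature muscle, had 11397 and 10372 in DKO, against 41328 and 47397 in Kdm5a KO (-2.03 ± 0.09). For these 3 genes of the thin filament every DKO library was below every Kdm5a KO library. The embryonic myosin Myh3 (ENSMUSG00000020908) had 20397 and 21204 in DKO, against 99141 and 107427 in Kdm5a KO (-2.31 ± 0.05). The perinatal myosin Myh8 had 85.2 and 85.7 in DKO, against 2575 and 3905 in Kdm5a KO (-5.20 ± 0.22), and the adult fast myosin Myh1, whose exons overlap the antisense gene Myhas, had 559 and 568 in DKO, against 5672 and 6228 in Kdm5a KO (-3.40 ± 0.06). The fall of Myh8 was thus far larger than that of most members of its set. Ttn (titin), the molecular spring of the sarcomere, had 87456 and 101809 in DKO, against 177091 and 182636 in Kdm5a KO (-0.93 ± 0.08).

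Several contractile genes did not follow. Mybpc1, the slow myosin-binding protein C, had 4761 and 4787 normalised counts in DKO, against 2979 and 3670.1 in Kdm5a KO (0.53 ± 0.16, limma adjusted p = 0.0102). That rise did not pass with DESeq2 (adjusted p = 0.0587) or without the first Kdm5a KO library (0.38, adjusted p = 0.118), and Gm48752 overlaps its exons. Tnnt3, the fast troponin T, had 15574 and 16001 in DKO, against 14193 and 14597 in Kdm5a KO (0.13 ± 0.04), which did not pass under upper-quartile scaling or without the second DKO or the first Kdm5a KO library. Nebulin (Neb) had 12659.9 and 13422 in DKO, against 11224 and 12191 in Kdm5a KO (0.16 ± 0.06), and lost its call in most of the alternatives that left out a library. The slow myosin Myh7 had 229.9 and 237 in DKO and 222 and 302 in Kdm5a KO, with overlapping libraries and no call (-0.15 ± 0.20).

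Calcium handling, the neuromuscular junction and muscle energy supply showed the same lean. Of 23 calcium-handling genes 15 fell and 4 rose, with a median change of -0.38, or -0.93 without the genes that share exons. Srl (sarcalumenin), a calcium-binding protein of the sarcoplasmic reticulum, had 12386 and 12368 normalised counts in DKO, against 42308 and 43621 in Kdm5a KO (-1.80 ± 0.06, limma adjusted p = 4.90e-11), and Casq2 (calsequestrin) had 4189.8 and 3954 in DKO, against 13218 and 14285 in Kdm5a KO (-1.76 ± 0.06). Both genes were well below the Kdm5a KO libraries in both DKO libraries. Atp2a1 (SERCA1), the fast calcium pump, had 7773 and 9605 in DKO, against 11637 and 10669.9 in Kdm5a KO (-0.37 ± 0.10), and did not pass without the first DKO library (-0.21, adjusted p = 0.102) or the first Kdm5a KO library (-0.30, adjusted p = 0.0691). Its small inhibitor Sln (sarcolipin, ENSMUSG00000042045) rose instead, with 1133 and 1138 in DKO, against 252 and 242 in Kdm5a KO (2.20 ± 0.18).

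Of 20 genes of the acetylcholine receptor and the junction 15 fell and 3 rose. Chrng, the embryonic gamma subunit of the receptor, had 4318 and 4352 normalised counts in DKO, against 14253 and 12967 in Kdm5a KO (-1.65 ± 0.07, limma adjusted p = 5.47e-10). Musk, the kinase that organises the junction, had 575 and 604 in DKO, against 1654 and 1799 in Kdm5a KO (-1.55 ± 0.09), and its coreceptor Lrp4 fell by 1.82 ± 0.08. Colq, the tail that anchors acetylcholinesterase, rose, with 248 and 211 in DKO, against 46.1 and 46.9 in Kdm5a KO (2.27 ± 0.22), and Gm49387 overlaps its exons. Among 24 genes of muscle energy supply and glycogen none rose and 19 fell (median change -0.77). Pygm, muscle glycogen phosphorylase, had 2946 and 2878 in DKO, against 6539 and 6632 in Kdm5a KO (-1.18 ± 0.05). Ckm (muscle creatine kinase) was among the 5 that did not pass, with 1213 and 1167 in DKO and 1293 and 883 in Kdm5a KO (0.16 ± 0.14), but it passed as a rise without the first Kdm5a KO library (0.43, adjusted p = 0.00539).

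With clone names such as Gm and Rik left out, the largest fall of a gene that shares no exons and reached a mean of 100 in either genotype was that of Mstn (myostatin, ENSMUSG00000026100), the secreted brake on muscle growth. It had 28.9 and 30.4 normalised counts in DKO, against 3035 and 4339 in Kdm5a KO (-6.89 ± 0.20, limma adjusted p = 2.77e-11). Other deep falls with no shared exons were those of the channel genes Cnga2 (5.26 and 4.74 in DKO, against 296 and 304 in Kdm5a KO, -5.65 ± 0.69) and Kcnc4 (-5.35 ± 0.38), of Crct1 (33.7 and 30.8 in DKO, against 1495 and 1626 in Kdm5a KO, -5.55 ± 0.14), of Ms4a4d (-5.51 ± 0.37) and of the kinesin Kif26a (-5.45 ± 0.46). The change of Kif26a was -4.66 without the first and -6.24 without the second DKO library. The orphan nuclear receptor Esrrb had 9.47 and 13.4 in DKO, against 671 and 520.2 in Kdm5a KO (-5.59 ± 0.27). Among the largest rises that were not genes of the cell cycle, Crabp1, which binds retinoic acid in the cytoplasm, had 783 and 679.5 in DKO, against 2.71 and 2.80 in Kdm5a KO (7.6 ± 0.32). Ugt8a, which makes galactolipids of myelin, had 241 and 269 in DKO, against 0 and 0.70 in Kdm5a KO (7.62 ± 0.49). Rundc3b had 366 and 391.5 in DKO, against 0 and 1.4 in Kdm5a KO (7.94 ± 0.49), and its change was 7.30 without the first and 8.57 without the second Kdm5a KO library. With clone names again left out, the largest rise among genes that share no exons and reached a group mean of 100 was that of Esco2, an acetyltransferase of cohesin, with 1308 and 1295 in DKO, against 5.43 and 2.10 in Kdm5a KO (8.19 ± 0.35).

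Mitochondrial genes of the nucleus fell broadly. Of 81 nuclear genes of oxidative phosphorylation 64 fell, 2 rose and 15 did not pass, with a median change of -0.83. Atp5b, the catalytic subunit of ATP synthase, had 7808 and 7743 normalised counts in DKO, against 19006 and 18221 in Kdm5a KO (-1.26 ± 0.04, limma adjusted p = 1.35e-10), and Ndufv1, a complex I subunit, had 1089.9 and 1155 in DKO, against 3016 and 3104 in Kdm5a KO (-1.45 ± 0.07). Both genotypes held tight pairs of values with a wide gap between them. Cox6a2, the muscle form of a cytochrome oxidase subunit, fell by 1.60 ± 0.17 and its ubiquitous counterpart Cox6a1 by 0.97 ± 0.11, where Cox6a2 shares exons with Itgad. Of 74 genes for mitochondrial ribosomal proteins 45 fell and 7 rose, and of 36 genes of the tricarboxylic acid cycle and fatty acid oxidation 27 fell and 4 rose. Citrate synthase (Cs) had 3015 and 3004 in DKO, against 4602 and 4700.0 in Kdm5a KO (-0.63 ± 0.06). Acadm, an enzyme of fatty acid oxidation, had 234 and 197 in DKO, against 940.5 and 819 in Kdm5a KO (-2.03 ± 0.17).

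Genes of mitochondrial biogenesis and dynamics were split, with 8 of 21 risen and 9 fallen, near the 33.7 and 33.4% of all genes. Among those that fell were Mfn2 (-1.26 ± 0.08), which fuses mitochondria, and Fis1 (-1.17 ± 0.08) and Mff (-1.07 ± 0.06), which act in their division, as well as the nuclear receptor Esrrb described above. Tfam, which packs mitochondrial DNA and acts in its transcription, had 1299 and 1305 normalised counts in DKO, against 671 and 606 in Kdm5a KO (1.03 ± 0.12, limma adjusted p = 8.63e-06), and Nrf1 had 1368 and 1342 in DKO, against 713 and 649 in Kdm5a KO (0.99 ± 0.08). Ppargc1a (PGC-1alpha), the coactivator of mitochondrial genes, had 669 and 614 in DKO, against 409.6 and 390.0 in Kdm5a KO (0.68 ± 0.15), and its relative Ppargc1b did not pass (0.04 ± 0.10). Esrrg, a nuclear receptor that works with these coactivators, rose by 2.26 ± 0.15. Messengers of the mitochondrial genome were split, 4 of 7 measured up and 3 down: mt-Cytb had 17538 and 16618 in DKO, against 11339.8 and 11529.7 in Kdm5a KO (0.58 ± 0.05), while mt-Nd1, next to a transfer RNA gene that shares its exon, had 43482 and 41662 in DKO, against 78770.3 and 75413 in Kdm5a KO (-0.86 ± 0.05).

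Glycolysis fell with a median change of -1.39, 14 of 17 genes down and 1 up. Pfkl, the liver-type phosphofructokinase, had 242 and 219 normalised counts in DKO, against 2667 and 2604 in Kdm5a KO (-3.51 ± 0.09, limma adjusted p = 1.05e-11). Pdk1, the kinase that turns pyruvate away from mitochondria, had 136 and 109 in DKO, against 2632 and 2482 in Kdm5a KO (-4.38 ± 0.16), and hexokinase 2 (Hk2) had 577 and 567 in DKO, against 2507 and 2744 in Kdm5a KO (-2.20 ± 0.08). All 3 were several-fold lower in both DKO libraries. The glucose transporter Slc2a3 (GLUT3) rose instead, with 191 and 186 in DKO, against 28.0 and 15.4 in Kdm5a KO (3.12 ± 0.42). Of 23 genes of sterol and fatty acid synthesis 19 fell and 1 rose: the desaturase Scd1 had 2808 and 2784 in DKO, against 17291 and 16404 in Kdm5a KO (-2.59 ± 0.05), and Fasn, fatty acid synthase, was the member that rose (0.43 ± 0.09).

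Housekeeping of proteins leaned down as well. Of 30 genes of autophagy and the lysosome 21 fell and 5 rose. Lamp1, a membrane protein of the lysosome that shares exons with Grtp1, had 6088 and 6001 normalised counts in DKO, against 16430.1 and 16251 in Kdm5a KO (-1.43 ± 0.04, limma adjusted p = 4.69e-11). The forkhead factors Foxo3 (1992 and 1906 in DKO, against 615 and 730.2 in Kdm5a KO, 1.54 ± 0.09) and Foxo1 (1.28 ± 0.09), which induce autophagy genes in muscle, rose. Of 28 genes of endoplasmic reticulum stress and heat shock 21 fell and 3 rose, among them the chaperone Hsph1 with 1091 and 1119.6 in DKO, against 4499.8 and 4405 in Kdm5a KO (-2.01 ± 0.06). Of 72 cytosolic ribosomal protein genes 36 fell, 5 rose and 31 did not pass (median change -0.54), and these genes have many near-identical pseudogenes, between which the counting may have split reads. Rpl8 had 3187 and 3022 in DKO, against 8702 and 8769.8 in Kdm5a KO (-1.49 ± 0.05).

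In the wider set of 49 fibroblast matrix genes 30 rose, 10 fell and 9 did not pass, with a median change of 0.62. Mmp2, a protease that degrades collagen, had 2566 and 2392 normalised counts in DKO, against 342 and 403 in Kdm5a KO (2.74 ± 0.11, limma adjusted p = 5.37e-10), and Postn (periostin) had 1259 and 1205 in DKO, against 309 and 339 in Kdm5a KO (1.92 ± 0.10). Of the fibrillar collagens, Col3a1 had 5712 and 5935 in DKO, against 2413 and 2376 in Kdm5a KO (1.28 ± 0.09), and Col1a1 had 266 and 260.3 in DKO, against 197 and 117 in Kdm5a KO (0.79 ± 0.21), which did not pass without the second Kdm5a KO library (0.41, adjusted p = 0.0661). Fn1 (fibronectin) was level, with 2682 and 3202 in DKO and 2956 and 2994 in Kdm5a KO (-0.02 ± 0.12). The matrix glycoprotein Sparc fell, with 9186 and 8717 in DKO, against 24542 and 25234 in Kdm5a KO (-1.48 ± 0.05), and so did Col12a1 (-1.88 ± 0.10). Of 18 smooth muscle genes 11 rose and 6 fell, beside 33.7 and 33.4% of all genes. Calponin (Cnn1) had 372 and 349.6 in DKO, against 76.9 and 58.8 in Kdm5a KO (2.41 ± 0.16). Acta2, smooth muscle actin, had 15912 and 15702 in DKO, against 27688 and 27586 in Kdm5a KO (-0.81 ± 0.04). Of 13 endothelial genes 5 were below the mean of 10, and the 8 that were measured rose, beside 33.7% of all genes. Genes with few reads may reach that mean only through a group in which they are high. Among the 8 was Flt1, a receptor for VEGF, with 123 and 114 in DKO, against 9.95 and 6.30 in Kdm5a KO (3.74 ± 0.32).

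Interferon-stimulated and inflammatory genes were higher in DKO. Of 41 interferon-stimulated genes 31 rose and 4 fell, with a median change of 1.73. Oasl2, an antiviral protein of the oligoadenylate synthetase family, had 246 and 211 normalised counts in DKO, against 0.904 and 0.70 in Kdm5a KO (6.99 ± 0.41, limma adjusted p = 1.03e-08), and Ifit1 had 469 and 432 in DKO, against 39.8 and 56.7 in Kdm5a KO (3.22 ± 0.25). All cultures had received adenovirus, and its part in these changes was not tested. Of 12 measured inflammatory genes 8 rose and 2 fell, and 8 others were below the mean of 10. Ccl2, which attracts monocytes, had 82.6 and 71.1 in DKO and was at 0 in both Kdm5a KO libraries, which makes it at least 64.2-fold higher in DKO against a floor of 3 reads for the whole group. Cxcl12 had 383 and 363 in DKO, against 92.2 and 56.0 in Kdm5a KO (2.36 ± 0.20), and Il6 did not pass (-0.62 ± 0.36).

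Signalling genes moved in both directions, as did all genes, of which 33.7% rose and 33.4% fell. Of 30 genes of TGF-beta and BMP signalling 15 rose and 10 fell. The BMP antagonists Grem1 and Nog (noggin) parted: Grem1 had 227 and 256 normalised counts in DKO, against 2.71 and 1.4 in Kdm5a KO (6.34 ± 0.36, limma adjusted p = 8.18e-09), and Nog had 15.8 and 26.5 in DKO, against 812 and 735 in Kdm5a KO (-5.17 ± 0.23). Inhbb, a subunit of activin B, had 246 and 258 in DKO, against 12.7 and 16.1 in Kdm5a KO (4.05 ± 0.27). Grem1 and Inhbb were thus lowest in Kdm5a KO, and Nog in DKO. Of 27 Notch and Wnt genes 16 rose and 5 fell: the receptor Notch3 rose by 1.98 ± 0.15, and the ligand Wnt4 had 99.4 and 76.2 in DKO, against 796 and 757 in Kdm5a KO (-3.14 ± 0.16). Of 24 insulin-like and fibroblast growth factor genes 11 rose and 5 fell. Igf1 had 2056 and 2063 in DKO, against 1120.4 and 1125 in Kdm5a KO (0.87 ± 0.06), while Fgf10 had 44.2 and 37.9 in DKO, against 346 and 397 in Kdm5a KO (-3.15 ± 0.21). Of 17 imprinted genes 8 rose and 5 fell, and the imprinted RNA H19, abundant in embryonic muscle, had 126793 and 111699.9 in DKO, against 242948 and 250843 in Kdm5a KO (-1.05 ± 0.06).

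The same loss in cells with Kdm5a, Rb1 KO against WT, shares no library with the comparison above. There 12237 genes (71.1%) passed, 6336 higher and 5901 lower in Rb1 KO. Genes that rose in both comparisons numbered 4442, which is 76.6% of the rises in DKO and 70.1% of those in Rb1 KO, and 4200 fell in both, 73.1% of the falls in DKO and 71.2% of those in Rb1 KO. Opposite calls were fewer: 327 genes rose in DKO and fell in Rb1 KO, and 419 fell in DKO and rose in Rb1 KO. The difference of the effects, tested in the same limma fit, passed for 6591 genes (38.3%), 3240 with a higher and 3351 with a lower change on the Kdm5a-null background. That difference sets a pair of groups that matched female cells against a pair that had Y-linked reads and no Xist, so the absence of Kdm5a and the sex or origin of the cells cannot be told apart in it.

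Cell-cycle sets rose on both backgrounds. The median change of mitotic genes was 4.82 in DKO against Kdm5a KO and 4.54 in Rb1 KO against WT, and of 67 members the difference passed for 14 as higher and 7 as lower. Licensing genes had medians of 2.97 and 3.26, in the same order, with the difference higher for 2 and lower for 6 of 26. Among all genes the difference passed for 38.3% in either direction, so these 2 sets did not stand out. E2f1 changed by 1.26 ± 0.10 without and by 1.17 ± 0.10 with Kdm5a, a difference of 0.10 ± 0.14 that did not pass (limma adjusted p = 0.625). Cyclin E differed: Ccne2 had 5435 and 4623 normalised counts in Rb1 KO and 336 and 274 in WT, a change of 4.04 ± 0.10, and the difference from the change in DKO was 1.08 ± 0.14 (limma adjusted p = 8.04e-05).

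Sets of the contractile apparatus, calcium handling and muscle energy supply fell less on the Kdm5a-null background. The median of the thick filament genes was -1.0 there and -2.90 in Rb1 KO against WT, with the difference higher for 18 and lower for 1 of 22 members, against 38.3% of all genes that passed in either direction. For the thin filament and Z-disc the medians were -0.86 and -2.29, with 29 members higher and 2 lower of 41, and for calcium handling -0.38 and -2.61, with 20 higher and 1 lower of 23. For muscle energy supply the medians were -0.77 and -2.34, with 21 of 24 members higher and none lower. Junction genes had medians of -0.83 and -1.40, with 10 higher and 3 lower of 20. Genes for fusion and the muscle membrane were split, with medians of -0.24 and -0.05 and the difference higher for 8 and lower for 8 of 23, the first being -0.10 without the genes that share exons. Mybpc1 had 270.1 and 176 normalised counts in Rb1 KO and 3555 and 4236 in WT, a change of -4.15 ± 0.16, so that the difference was 4.68 ± 0.22 (limma adjusted p = 1.37e-08). Neb had 1491 and 1422 in Rb1 KO and 18682 and 16671 in WT (-3.60 ± 0.06, difference 3.75 ± 0.09), and Ckm had 284 and 274 in Rb1 KO and 2827 and 2456 in WT (-3.24 ± 0.14, difference 3.39 ± 0.20). Each was thus low in both Rb1 KO libraries and not in the DKO libraries. Myog had 10378 and 10372 in Rb1 KO and 16127 and 18252 in WT, so that it fell there (-0.73 ± 0.06) and the difference was 1.28 ± 0.08 (limma adjusted p = 1.41e-07). Musk had 94.5 and 84.2 in Rb1 KO and 4442 and 4721 in WT (-5.67 ± 0.09, difference 4.12 ± 0.13). Cdkn1c, whose exons overlap Gm44732, had 4768 and 4559 in Rb1 KO and 32948 and 32878 in WT (-2.82 ± 0.04, difference 3.17 ± 0.06).

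**Figure D4:**
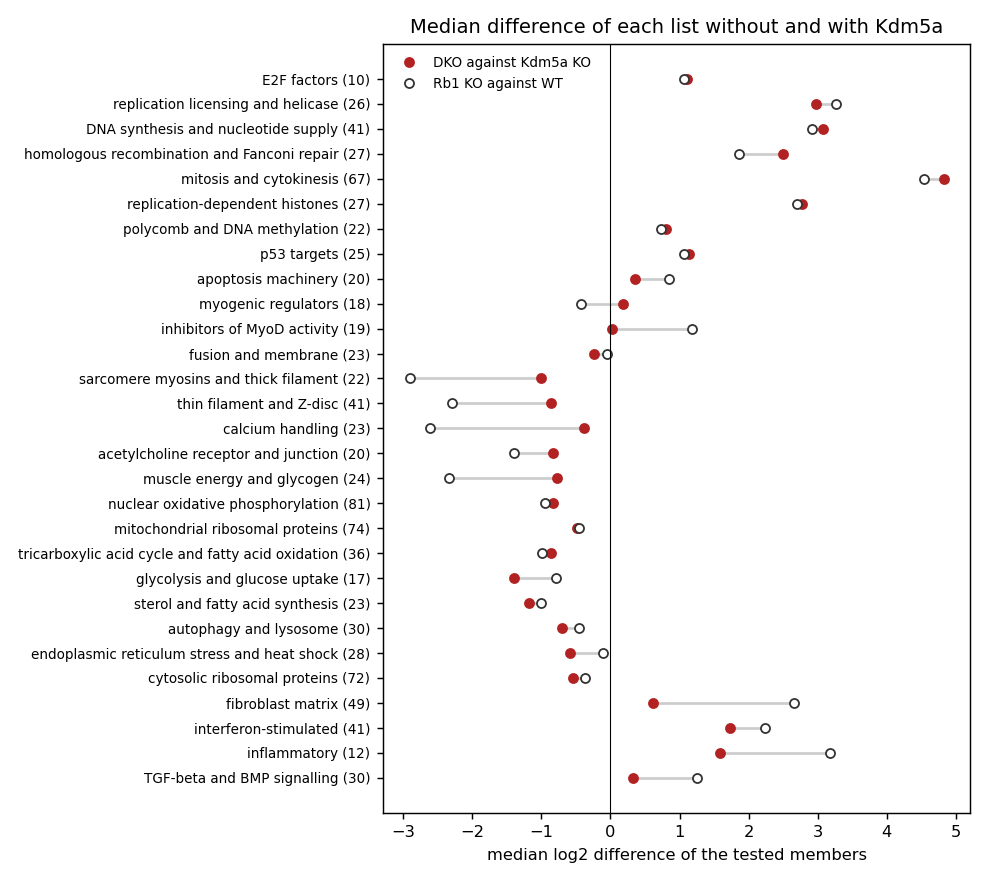
Median log2 change of the measured members of each gene set in DKO against Kdm5a KO (filled) and in Rb1 KO against WT (open). In the mitosis set both points lie far above 0 (4.82 filled and 4.54 open), in the thick filament set the filled point lies nearer 0 (-1.0 filled and -2.90 open), in the fusion set it lies farther from 0 (-0.24 filled and -0.05 open), and in the fibroblast matrix set it lies lower (0.62 filled and 2.65 open).

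Fibroblast matrix genes rose less without Kdm5a. Their median was 0.62 in DKO against Kdm5a KO and 2.65 in Rb1 KO against WT, and the difference was lower for 38 and higher for 2 of 49 members. Col1a1 had 1358 and 1818 normalised counts in Rb1 KO and 158 and 147 in WT (3.36 ± 0.21, difference -2.57 ± 0.30, limma adjusted p = 2.56e-05), and Fn1, whose exons overlap Apol7d, had 20547 and 26803 in Rb1 KO and 1161 and 1452 in WT (4.18 ± 0.12, difference -4.20 ± 0.17). The summed level of the 10 fibroblast markers was 61859 and 72649 in Rb1 KO and 10060 and 10310 in WT, and that of the 10 muscle markers 63709 and 63300.2 in Rb1 KO and 403999 and 368399 in WT. Both sums differed more between Rb1 KO and WT than between DKO and Kdm5a KO, and their part in the differences of single genes was not tested. Glycolysis genes had medians of -1.39 in DKO against Kdm5a KO and -0.79 in Rb1 KO against WT, with a difference lower for 10 and higher for 1 of 17 members. The autophagy and lysosome genes had medians of -0.71 and -0.46 in the same order, with the difference lower for 16 and higher for 4 of 30. Genes of endoplasmic reticulum stress and heat shock had medians of -0.58 and -0.11, with 14 lower and 5 higher of 28. Without the genes that share exons, the medians in DKO against Kdm5a KO were -0.41 for autophagy and lysosome and -0.88 for endoplasmic reticulum stress and heat shock. Pfkl changed by -0.98 ± 0.09 in Rb1 KO against WT, a difference of -2.53 ± 0.12 (limma adjusted p = 1.56e-08). Oxidative phosphorylation had medians of -0.83 without and -0.95 with Kdm5a, and of 81 members the difference was higher for 19 and lower for 4. Of 41 interferon-stimulated genes the difference was lower for 19 and higher for 4. These counts stand beside 38.3% of all genes for which the difference passed in either direction.

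**Figure D5:**
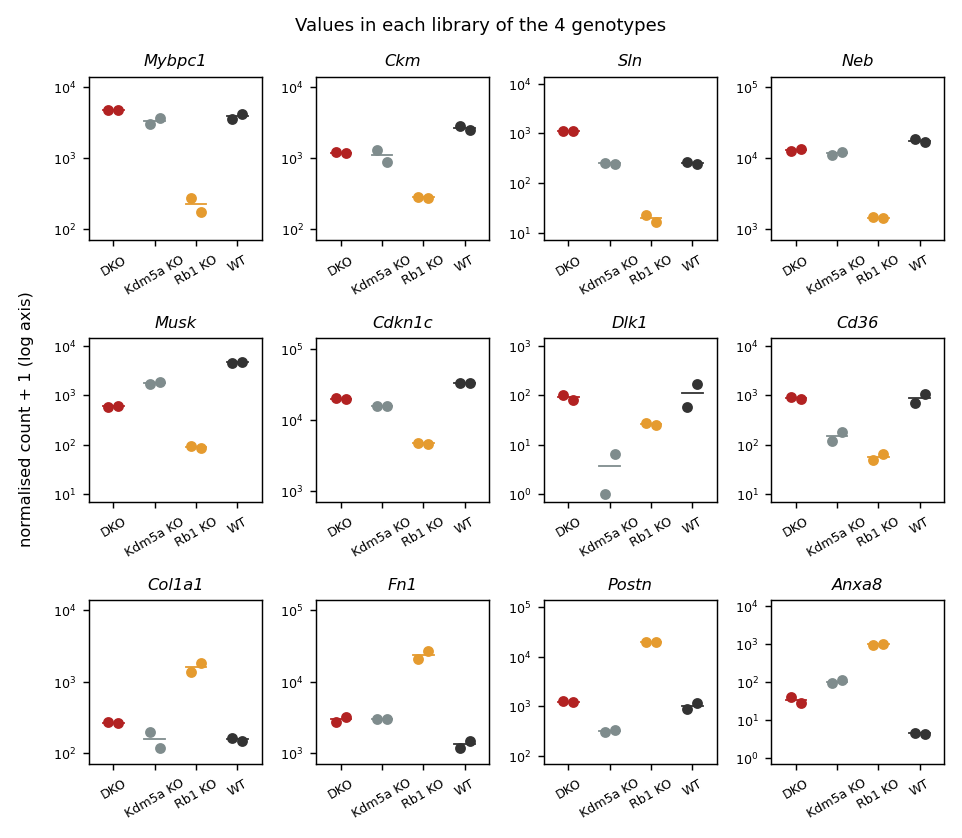
Normalised count + 1 (log axis) of 12 genes in each library of DKO, Kdm5a KO, Rb1 KO and WT, from left to right, with a line at the mean of the 2 libraries. For muscle genes such as Mybpc1, Ckm, Neb and Musk the lowest points are those of Rb1 KO, and for Col1a1, Fn1, Postn and Anxa8 the highest are.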

How the data were processed

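Signal values deposited by the authors, normalised counts for each gene and library, were read for the 8 mixed libraries. The submitters' processing notes name TopHat 1.2.0 for alignment, the build mm9 and DESeq for normalisation; the DESeq version, read counter and annotation release are not given in the sources used here. Each library's smallest step recovered its reads (100% of values within 0.01 of a whole number), which served for depth and count tests. Gene names and shared exons came from GENCODE M21, of a later assembly than mm9, which named 16100 of the 17199 genes, and 6087 share exons with another gene; promoters came from RefSeq. No strand is stated for the counting, so genes that overlap cannot be told apart.

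Log2(value + 1) was fitted with limma 3.58.1 (R 4.3.3; intensity trend, two-sided) over the 4 mixed groups, which share 1 estimate of the spread, with contrasts DKO minus Kdm5a KO, Rb1 KO minus WT and their difference, adjusted over 17199 genes with a mean of at least 10. Alternatives used edgeR 4.0.16 and DESeq2 1.42.0, other scalings, pseudocounts and filters, and each library left out, 20 settings in all. The limma fit was checked on simulated data, in which only DKO differed and far fewer genes changed than were called here.

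Members and gene lists were chosen with earlier results of these data known. Named were a fixed set of genes, the 8 largest rises and falls (libraries apart, no shared exons, a group mean of at least 100), up to 4 members a list with the smallest p in its main direction and up to 3 in the other, and the 4 largest differences each way under the same conditions. Clone names such as Gm and Rik were left out of the largest rises, falls and differences. The purified myotube libraries were not used here. A few genes that this rule names are not reported here.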

Additional observations from a re-analysis of the deposited data

Results flagged for a closer look

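The genes below had the largest differences between the effect of Rb1 loss without Kdm5a and its effect with Kdm5a, among the genes ranked. Ranked were genes that passed that test in limma, shared no exons and reached a mean of 100 in a group. Genes whose DKO and Kdm5a KO libraries overlapped were left out, as were clone names such as Gm and Rik. The difference is the log2 change DKO minus Kdm5a KO less the log2 change Rb1 KO minus WT. All 8 differences passed under each alternative run for them. In each, the absence of Kdm5a cannot be told apart from the sex or origin of the cells, and no explanation was tested.

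On the higher side stood Dlk1, Cd36, Sln and Pde1c. Dlk1, an imprinted membrane protein of muscle and fat precursors, had 98.4 and 79.8 normalised counts in DKO and 0 and 5.60 in Kdm5a KO, with 27.0 and 24.4 in Rb1 KO and 57.4 and 165 in WT. Its difference was 7.01 ± 1.02 (limma adjusted p = 0.000168), and its change in DKO was 3.76 without the first and 6.49 without the second Kdm5a KO library. Cd36, a fatty acid carrier, had 904 and 853 in DKO and 118 and 182 in Kdm5a KO, with 47.3 and 63.4 in Rb1 KO and 704 and 1031 in WT, a difference of 6.51 ± 0.32. Sln, the inhibitor of the calcium pump, had 1133 and 1138 in DKO and 252 and 242 in Kdm5a KO, with 21.6 and 15.4 in Rb1 KO and 267 and 244 in WT, a difference of 5.93 ± 0.25. Pde1c, a phosphodiesterase, had 2209 and 2281 in DKO and 584 and 569.9 in Kdm5a KO, with 101 and 78.7 in Rb1 KO and 1106 and 1242 in WT, a difference of 5.66 ± 0.17. All 4 moved in opposite directions on the 2 backgrounds.

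On the lower side stood Anxa8, Pthlh, Gbp3 and Kcne4. Anxa8, an annexin, had 38.4 and 26.9 in DKO and 92.2 and 107 in Kdm5a KO, with 934 and 1003 in Rb1 KO and 3.59 and 3.20 in WT, a difference of -9.39 ± 0.39 (limma adjusted p = 4.48e-09). Pthlh, which encodes parathyroid hormone-related protein, had 13.2 and 19 in DKO and 47.9 and 33.6 in Kdm5a KO, with 105 and 95.9 in Rb1 KO and 0 and 3.20 in WT, a difference of -6.92 ± 0.84. That difference rests on few reads in WT and depends on the pseudocount. In DKO against Kdm5a KO the change of Pthlh did not pass (-1.29, limma adjusted p = 0.0708), but it did with DESeq2 (adjusted p = 0.00785). Gbp3, a guanylate-binding protein induced by interferon, had 95.2 and 77.8 in DKO and 47.9 and 62.3 in Kdm5a KO, with 108 and 129 in Rb1 KO and 0 in both WT libraries, and its fitted difference of -6.25 ± 0.51 depends on the pseudocount. Its change in DKO against Kdm5a KO did not pass either (0.65, limma adjusted p = 0.132), but it did with the 4 libraries alone (adjusted p = 0.0376). Kcne4, a potassium channel subunit, had 19.5 and 7.11 in DKO and 129 and 134 in Kdm5a KO, with 221 and 212 in Rb1 KO and 34.7 and 42.6 in WT, a difference of -5.83 ± 0.53. Its change in DKO was -4.03 without the first and -2.70 without the second DKO library.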

How the results depend on the processing

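No named gene that passed was called in the other direction under the 20 settings tried. Changes near 0 that did not pass, such as that of Fn1, can change sign when a library is left out. Of 357 named genes 324 kept their call, or the lack of one, under all that could be run. The others lost or gained the call somewhere. Without the genes that share exons, 11112 genes were left to test, and called were 7413 in DKO against Kdm5a KO (3725 higher, 3688 lower), 7914 in Rb1 KO against WT (4084 higher, 3830 lower) and 4194 for the difference (2077 higher, 2117 lower). Leaving out a library gave 9937 to 11969 calls in DKO against Kdm5a KO, 11273 to 12195 in Rb1 KO against WT and 4934 to 6688 for the difference; a lone library is then assumed to vary like the others. With edgeR 11946 genes were called in DKO against Kdm5a KO, with DESeq2 11338, and with the 4 libraries alone 12284. The median change of all genes lay between -0.06 and 0.02, except 0.16 with no filter on low values (26432 genes), and 47.1 to 53.5% of calls were higher in DKO. A replicate block gave 11517 calls; libraries with the same number did not deviate together (correlation -0.028 between DKO and Kdm5a KO), so the numbers do not pair them. The medians of the inhibitors of MyoD, cartilage and bone, immediate early, macrophage and neural sets changed sign with a setting. Counts below about 10 reads carry large errors, as the standard errors of Myf6 (0.64) and Ccl2 (0.72) show.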

Other observations

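Chromosomes were not equal in the balance of calls in DKO against Kdm5a KO, where 33.7% of all genes rose and 33.4% fell. The median log2 change was 0.17 on chromosome 4 (40.4% of 1095 genes rose and 28.9% fell), 0.19 on chromosome 5 (39.2% of 976 rose and 26.3% fell) and 0.17 on chromosome 6 (37.7% of 798 rose and 28.3% fell). On the other autosomes it lay between -0.12 and 0.06, and on the X chromosome it was -0.13 over 651 genes. In Rb1 KO against WT the medians of chromosomes 4, 5 and 6 were 0.03, 0.04 and 0.09. These are descriptions, with no test.

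Kinds of transcript differed too, beside 33.7% of all genes that rose and 33.4% that fell. Small nucleolar RNA genes differed mainly in how few fell, and processed pseudogenes mainly in how few rose. Of 125 small nucleolar RNA genes 44 rose (35.2%) and 7 fell (5.60%), with a median change of 0.52, and most lie within introns of other genes. Of 559 processed pseudogenes 53 rose (9.48%) and 214 fell (38.3%), with a median change of -0.52, and reads of a pseudogene may come from the gene it copies.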
